A study of Homo sapiens with 8 samples.

Results

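A set of 9 well known human long noncoding RNAs was followed between P-bodies and cytosol in 2 acute myeloid leukaemia cell lines. The members were MALAT1, NEAT1, NORAD, OIP5-AS1, KCNQ1OT1, SNHG14, MIAT, TUG1 and PVT1. They were taken by symbol from the deposited gene tables, in which all 9 were found among 60196 usable symbols. The rule used no value of a member, but the choice was made with earlier results of these data known. MOLM-13 is a human leukaemia line of monocytic character and HEL is a human erythroleukaemia line. Each gave 2 P-body and 2 cytosolic libraries, so that the 4 groups were MOLM-13 P-body, MOLM-13 cytosol, HEL P-body and HEL cytosol. The labels give no genotype change and no drug for any library, and both lines were grown in RPMI medium with serum. The label "cyto" was read as the cytosolic fraction, and no source used here says how the fractions were prepared. Separate cultures are not stated for the replicates, and p-values therefore reflect spread among libraries that may be technical.

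P-bodies are membraneless condensates of the cytoplasm that gather translationally repressed mRNAs with decapping and silencing factors. Long noncoding RNAs are transcripts that are not translated into a known protein. Some, such as MALAT1 and NEAT1, are known as nuclear RNAs that reside in or build nuclear bodies, and others, such as NORAD, act in the cytoplasm.

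In both lines NORAD, OIP5-AS1 and SNHG14 were higher in P-bodies than in cytosol, and NEAT1 and TUG1 were lower. OIP5-AS1 was 2.62-fold higher in MOLM-13 and 2.14-fold higher in HEL, and SNHG14 was 2.02-fold higher in MOLM-13 and 4.14-fold higher in HEL. NEAT1 was 1.90-fold lower in MOLM-13 P-bodies and 2.16-fold lower in HEL P-bodies. MALAT1 was called lower in P-bodies of MOLM-13 and was not called in HEL, and the test of the difference between the lines called it. KCNQ1OT1 was called lower in HEL and was not called in MOLM-13, PVT1 was called in neither line, and MIAT had too few counts for a test.

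The sequences of 3 members carry features for which these RNAs are known, and they are shown here because the cytoplasmic members and MALAT1 are described through them. NORAD (GRCh38 chromosome 20, 36045622 to 36050960, minus strand) is a single exon of 5339 bases whose repeated units bind proteins of the Pumilio family. The motif TGTANATA, searched on the transcript strand with overlaps allowed, stood 15 times in it, from position 761 to position 4599 of the transcript. That is 2.81 motifs per kb. Of the 3581 reference transcripts at least as long, NORAD included and 1 per gene, 36.75% held the motif in their first 5339 bases and 0.084% held it as often. At 3 places a pair of motifs started 9 bases apart, and each pair is printed 5′ to 3′ with 10 bases on either side and the motifs in capitals, as in GENCODE release 29.
NORAD motif pair 1, chr20:36049493-36049529: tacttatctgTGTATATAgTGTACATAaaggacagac
NORAD motif pair 2, chr20:36048296-36048332: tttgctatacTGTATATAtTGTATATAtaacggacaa
NORAD motif pair 3, chr20:36047660-36047696: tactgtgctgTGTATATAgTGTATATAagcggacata

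OIP5-AS1, also called Cyrano, lies on chromosome 15 (41283990 to 41309737, plus strand), and its reference transcript has 4 exons and 8829 bases. It is known for a long site complementary to the microRNA miR-7, through which it lowers miR-7 in mouse. A match to the miR-7 seed, bases 2 to 8 of the mature microRNA, stood 3 times in the transcript, and the match at position 2887 had an unbroken run of 14 further complementary bases upstream. The site is printed with its complementary bases in capitals, and the mature microRNA from RefSeq (GRCh38) with its seed in capitals.
OIP5-AS1 miR-7 site, chr15:41300571-41300600: aagAACAACAAAATCACcaatGTCTTCCat
hsa-miR-7-5p: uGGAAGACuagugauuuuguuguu

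MALAT1 lies on chromosome 11 (65497688 to 65506516, plus strand) and its reference transcript is a single exon of 8708 bases. Its mature end is known to fold into a triple helix of U-rich stretches and an A-rich tract, after RNase P cuts off the small tRNA-like mascRNA. The 100 bases before mascRNA are printed with 3 runs of T, the first broken by a C, and 1 run of A in capitals. The capitals mark runs of a base found by search and do not delimit the parts of the helix.
MALAT1 before mascRNA, chr11:65506017-65506116: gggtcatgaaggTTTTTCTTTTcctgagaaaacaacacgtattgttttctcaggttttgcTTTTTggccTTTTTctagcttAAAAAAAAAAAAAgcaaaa

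Library totals ran from 5897625 to 11000536 counts in MOLM-13 and from 13153551 to 18071473 in HEL. The 9 members held 0.412% and 0.414% of the counts in MOLM-13 P-body libraries and 0.658% and 0.626% in MOLM-13 cytosol. In HEL they held 0.168% and 0.175% of P-body counts and 0.159% and 0.143% of cytosolic counts. MALAT1 supplied most of this in MOLM-13, with 67.1% and 66.9% of the members' counts in P-bodies and 81.9% and 81.3% in cytosol. In HEL its part was 33.7% and 36.1% in P-bodies and 50% and 49.5% in cytosol. The summed markers of each labelled line were higher in that line. CPM are counts scaled to library size, and the marker values here are scaled over all 8 libraries together. The sum of 9 myeloid and monocytic markers ran from 1120 to 1550 CPM in MOLM-13 and from 145 to 157 CPM in HEL. In HEL, MPO had no count and FLT3 at most 0.0654 CPM. The sum of 9 erythroid and megakaryocytic markers was at most 33.7 CPM in MOLM-13, with HBG1 at 0, and ran from 1170 to 2300 CPM in HEL. CD33, SPI1, MEIS1 and EPOR were found in both lines. MEIS1, on the MOLM-13 list, went against it, with 19.9 to 51.4 CPM in MOLM-13 and 48.2 to 71.7 CPM in HEL.

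The comparison of fractions was made separately for MOLM-13 and for HEL by edgeR's quasi-likelihood test, over all genes that passed a filter on low counts. An adjusted p below 0.05 was called. Of the 9 members 8 passed the filter in each line, all but MIAT. In MOLM-13, 3 members were called higher and 3 lower in P-bodies, where 32.4% of the 14089 genes tested were called higher and 28.5% lower. In HEL the members again gave 3 higher and 3 lower, where 27.5% of 14772 genes were called higher and 27.1% lower. A call was therefore common in both lines, and 3 of 8 is near these shares. The libraries of the fractions did not overlap in MOLM-13 for 3 members higher in P-bodies and 4 lower there, where 39.2% and 40.6% of tested genes did not, and in HEL for 4 higher in P-bodies and 3 lower there, where 35.3% and 41.1% did not. The median log2 change of the 8 tested members was -0.15 in MOLM-13 and 0.07 in HEL, beside -0.037 and -0.062 over all genes tested there. The members thus spread to both sides of the bulk of genes and did not move as a block. Called in the same direction in both lines were 3 members higher and 2 lower, where 24.5% of the 11984 genes tested in both were higher in both and 14.9% lower in both. Unless stated otherwise, CPM are scaled by TMM within each line, and ± is a standard error (SE) for a log2 change and an SD for a level, with 2 libraries per group.

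**Figure D1:**
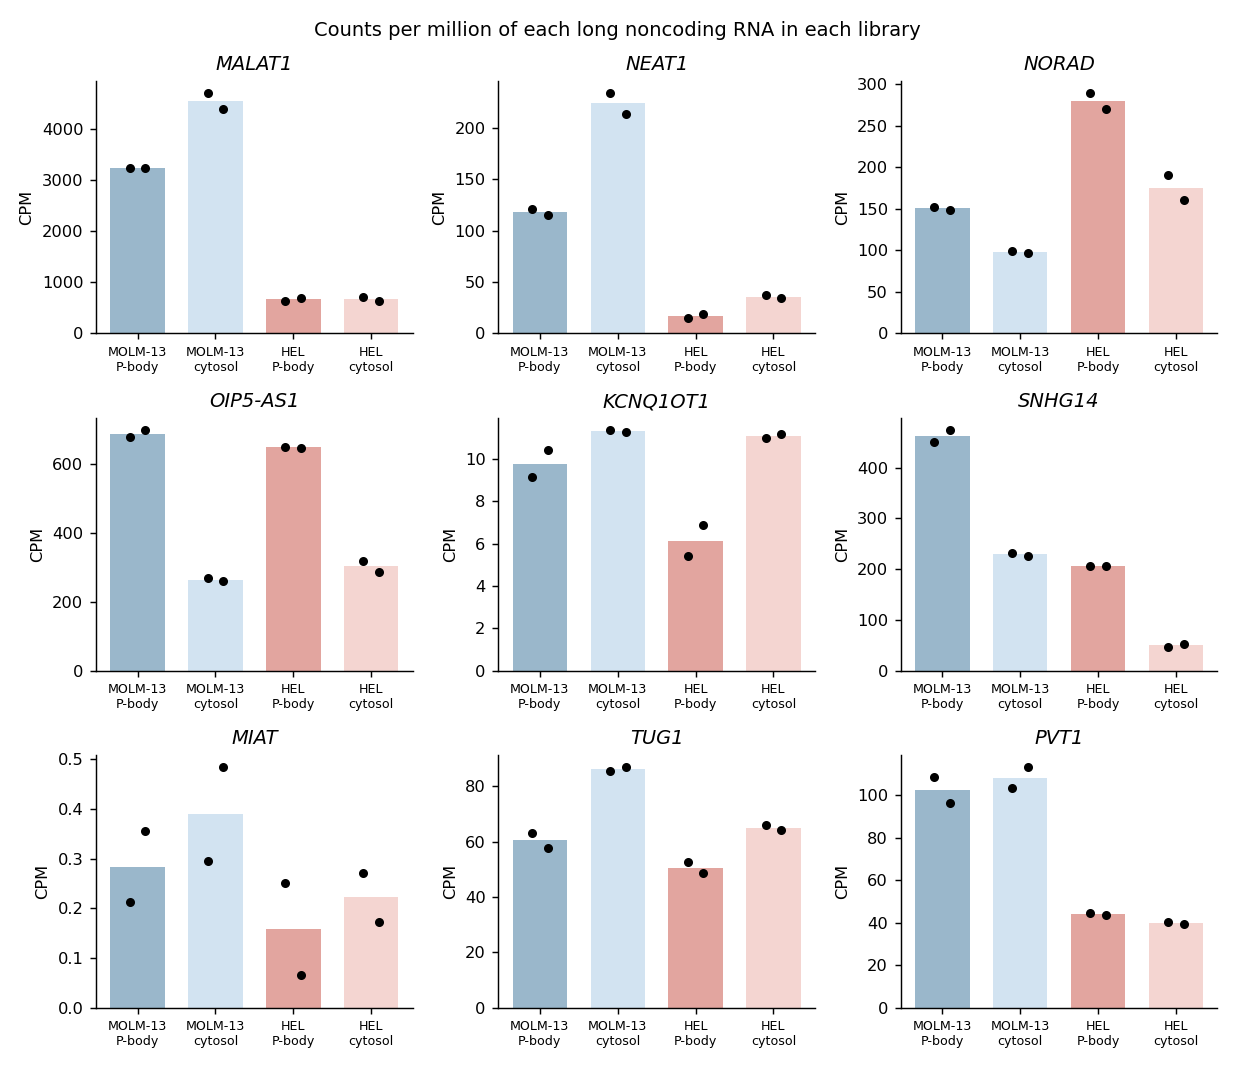
CPM (vertical axis, from 0, a scale of its own for each gene) of the 9 long noncoding RNAs in MOLM-13 P-body, MOLM-13 cytosol, HEL P-body and HEL cytosol; points are the 2 libraries and bars their mean. SNHG14 and OIP5-AS1 stand higher in the P-body libraries of both lines, NEAT1 stands lower, and MALAT1 reaches 4693 CPM in MOLM-13 cytosol.

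Among the nuclear RNAs, MALAT1 localises to nuclear speckles, where splicing factors gather. It had 3231 and 3238 CPM in MOLM-13 P-bodies, against 4693 and 4373 CPM in MOLM-13 cytosol. The groups did not overlap and MALAT1 was 1.40-fold lower in P-bodies, a log2 change of -0.49 ± 0.040 (edgeR adjusted p = 9.83e-11). In HEL it had 641 and 701 CPM in P-bodies, against 712 and 636.5 CPM in cytosol. The HEL groups overlapped, and the log2 change of -0.0075 ± 0.077 was not called (edgeR adjusted p = 0.946; 95% interval -0.17 to 0.16). Whether MALAT1 in HEL was called rested on the scaling: with library totals in place of TMM its log2 change was -0.33 (edgeR adjusted p = 0.00225).

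NEAT1 (chromosome 11, 65422774 to 65445540, plus strand) is the RNA scaffold of paraspeckles and lies beside MALAT1. It had 121 and 115 CPM in MOLM-13 P-bodies, against 234 and 213.5 CPM in MOLM-13 cytosol, which is a log2 change of -0.92 ± 0.060 (edgeR adjusted p = 1.16e-12). HEL P-bodies held 14.7 and 18.5 CPM of it, against 37.5 and 34.2 CPM in HEL cytosol, and the log2 change was -1.11 ± 0.13 (edgeR adjusted p = 4.83e-06). Both P-body libraries lay below both cytosolic libraries in each line, by about the same factor. Only 8.74% of genes tested in MOLM-13 and 5.1% in HEL had a lower change than NEAT1. Its short and long isoforms share the start of the gene and were not told apart in counts per gene.

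KCNQ1OT1 (chromosome 11, 2608328 to 2699994, minus strand) is an imprinted RNA transcribed antisense to KCNQ1 and acts on chromatin near its own gene. It was scarce, with 86 and 88 counts in MOLM-13 P-bodies, 77 and 93 in MOLM-13 cytosol, 86 and 106 in HEL P-bodies, and 162 and 194 in HEL cytosol. These counts were 9.13 and 10.4 CPM in MOLM-13 P-bodies, against 11.4 and 11.3 CPM in MOLM-13 cytosol. The groups did not overlap, and the log2 change of -0.21 ± 0.18 was not called (edgeR adjusted p = 0.311; 95% interval -0.58 to 0.16). With library totals in place of TMM, KCNQ1OT1 was called lower in MOLM-13 too (-0.65; edgeR adjusted p = 0.00285). So it was with the trend of log2 change on GC content and transcript length over all genes removed (-0.59; edgeR adjusted p = 0.00863). In HEL it had 5.39 and 6.90 CPM in P-bodies, against 11.0 and 11.2 CPM in cytosol, a log2 change of -0.85 ± 0.18 (edgeR adjusted p = 0.000992). The interaction between line and fraction was not called for it, at 0.45 (MOLM-13 minus HEL; edgeR adjusted p = 0.234), so the lines were not shown to differ. KCNQ1 shares 121 exonic bases with it on the opposite strand and had 13 to 25 counts per MOLM-13 library and none in HEL.

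SNHG14 (chromosome 15, 24978583 to 25419462, plus strand) is a long imprinted transcript of the Prader-Willi and Angelman region. It hosts the SNORD116 and SNORD115 small nucleolar RNAs in its introns and, in neurons, runs antisense over UBE3A. Its level was 450.3 and 474 CPM in MOLM-13 P-bodies, against 233 and 226 CPM in MOLM-13 cytosol, a log2 change of 1.01 ± 0.049 (edgeR adjusted p = 3.5e-15). HEL P-bodies held 205 and 207 CPM, against 47.2 and 52.4 CPM in HEL cytosol, and here the log2 change was 2.05 ± 0.085 (edgeR adjusted p = 6.74e-11). Every P-body library lay above every cytosolic library of its line. In HEL 98.5% of tested genes had a smaller log2 change than SNHG14, and in MOLM-13 84.9% did.

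No source used here gives the strand setting of the counts, so reads of SNHG14 and of UBE3A, the ubiquitin ligase gene on the opposite strand, cannot be told apart where the annotated exons overlap, over 198 bases. UBE3A moved in the same direction, with a log2 change of 1.28 ± 0.052 in MOLM-13 (edgeR adjusted p = 7.29e-17) and 1.31 ± 0.068 in HEL (edgeR adjusted p = 5.88e-10). The ratio of SNHG14 to UBE3A counts was 1.07 and 1.14 in MOLM-13 P-bodies and 1.31 and 1.36 in MOLM-13 cytosol. In HEL it was 0.227 and 0.237 in P-bodies and 0.130 and 0.148 in cytosol. The 2 genes therefore did not keep 1 ratio, which was lower in P-bodies of MOLM-13 and higher in P-bodies of HEL. SNRPN, which overlaps the start of SNHG14 on the same strand over 141 bases, had a log2 change of -0.32 ± 0.15 in MOLM-13, which was not called (edgeR adjusted p = 0.0745). In HEL its log2 change was -0.56 ± 0.19 (edgeR adjusted p = 0.0198), opposite to SNHG14.

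NORAD, which keeps Pumilio proteins from their target mRNAs and is needed for stable chromosome numbers, was higher in P-bodies of both lines. It had 152 and 149 CPM in MOLM-13 P-bodies, against 99.0 and 96.8 CPM in MOLM-13 cytosol, which was 1.54-fold higher (log2 change 0.62 ± 0.062; edgeR adjusted p = 3.87e-09). In HEL P-bodies it had 289 and 269.6 CPM, against 191 and 160.5 CPM in HEL cytosol, which was 1.59-fold higher (log2 change 0.67 ± 0.086; edgeR adjusted p = 9.79e-06). The P-body and cytosolic libraries did not overlap in either line. Both calls ended when the trend of log2 change on GC content and transcript length over all genes was taken out: the remainder for NORAD was -0.052 in MOLM-13 (adjusted p = 0.515) and 0.14 in HEL (adjusted p = 0.190).

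OIP5-AS1, the miR-7 partner, had 679 and 699 CPM in MOLM-13 P-bodies, against 268 and 259 CPM in MOLM-13 cytosol. Its log2 change there was 1.39 ± 0.047 (edgeR adjusted p = 1.94e-18), the highest of the 8 tested members in that line. HEL P-bodies held 650.3 and 647.5 CPM, against 319 and 288 CPM in HEL cytosol, a log2 change of 1.10 ± 0.072 (edgeR adjusted p = 6.94e-09). The P-body levels of OIP5-AS1 were nearly the same in all 4 P-body libraries. With the GC and length trend removed the log2 changes were smaller but still called, at 0.55 in MOLM-13 (adjusted p = 3.74e-10) and 0.28 in HEL (adjusted p = 0.00518). The antisense neighbour OIP5, a centromere protein gene that shares 470 exonic bases, was not called in either line, with log2 changes of -0.061 ± 0.29 in MOLM-13 and -0.18 ± 0.16 in HEL.

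TUG1 (chromosome 22, 30969245 to 30979395, plus strand), found in nucleus and cytoplasm and first described in the developing mouse retina, was lower in P-bodies of both lines. It had 63.0 and 57.7 CPM in MOLM-13 P-bodies, against 85.6 and 86.8 CPM in MOLM-13 cytosol, a log2 change of -0.51 ± 0.076 (edgeR adjusted p = 2.71e-06). HEL P-bodies held 52.5 and 48.5 CPM, against 65.8 and 64.3 CPM in HEL cytosol, a log2 change of -0.36 ± 0.093 (edgeR adjusted p = 0.00404). The groups did not overlap in either line. The HEL call was lost without P-body replicate 2 (log2 change -0.22; edgeR adjusted p = 0.151).

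PVT1, the neighbour of MYC on chromosome 8 and often amplified with it in cancer, was called in neither line. It had 109 and 96.4 CPM in MOLM-13 P-bodies, against 103 and 113 CPM in MOLM-13 cytosol, and these groups overlapped (log2 change -0.080 ± 0.072; edgeR adjusted p = 0.349). HEL P-bodies held 44.8 and 43.8 CPM, against 40.6 and 39.3 CPM in HEL cytosol (log2 change 0.15 ± 0.0997; edgeR adjusted p = 0.221). The 95% intervals of the log2 change ran from -0.23 to 0.07 in MOLM-13 and from -0.063 to 0.36 in HEL. Scaling by library totals gave a called -0.52 in MOLM-13 (edgeR adjusted p = 5.55e-06) and an uncalled -0.18 in HEL (edgeR adjusted p = 0.131). The HEL change was 0.40 (adjusted p = 0.00431) with the GC and length trend removed, so that its direction in HEL turned with the setting.

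MIAT (chromosome 22, 26646428 to 26676475, plus strand), a nuclear RNA that binds the splicing factors SF1 and QKI, was barely detected. It had 2 and 3 counts in MOLM-13 P-bodies, 2 and 4 in MOLM-13 cytosol, 4 and 1 in HEL P-bodies, and 4 and 3 in HEL cytosol. Summed over libraries, the ratio of P-body to cytosolic MIAT was 0.649 in MOLM-13 (95% counting interval 0.157 to 2.55) and 0.772 in HEL (0.193 to 2.83). The intervals cover counting error only, and no difference was detectable at this depth. MIAT was thus not abundant in these libraries.

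**Figure D2:**
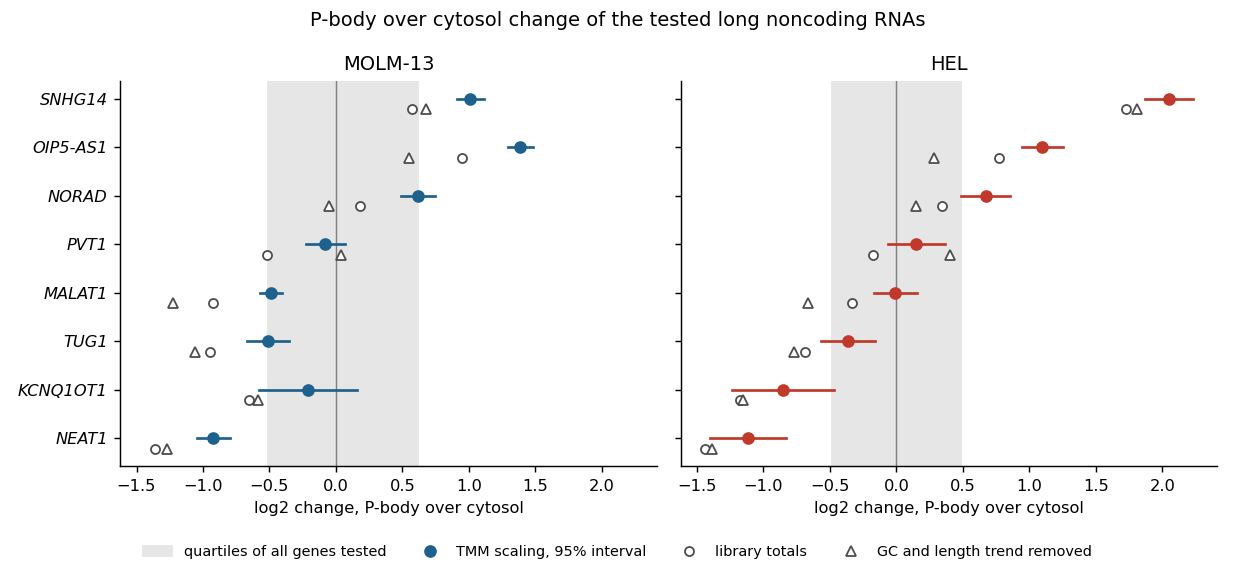
Log2 change, P-body over cytosol (horizontal axis), of the 8 tested long noncoding RNAs in MOLM-13 (left) and HEL (right); filled points carry 95% intervals from the TMM-scaled fit, open circles are the values scaled by library totals, open triangles those with the GC and length trend removed, and the grey band spans the quartiles of all genes tested. SNHG14 and OIP5-AS1 stay right of 0 and NEAT1 and TUG1 left of 0 under all 3 settings, and the NORAD triangle lies near 0 in both lines.

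Levels were compared between genes per kb of annotated exon, since a longer RNA gives more reads. On this scale MALAT1 had the highest mean in all 4 groups, with 366 ± 0.546 CPM per kb in MOLM-13 P-bodies, 513 ± 25.7 in MOLM-13 cytosol, 76.0 ± 4.80 in HEL P-bodies and 76.4 ± 6.04 in HEL cytosol. After it came OIP5-AS1 and NORAD, with 54.4 ± 1.1 and 28.2 ± 0.393 CPM per kb in MOLM-13 P-bodies. In MOLM-13 cytosol OIP5-AS1 (20.8 ± 0.492), PVT1 (19.7 ± 1.25) and NORAD (18.3 ± 0.289 CPM per kb) stood close together, and the replicates of OIP5-AS1 and PVT1 overlapped. NORAD (52.3 ± 2.6) and OIP5-AS1 (51.2 ± 0.159 CPM per kb) did not differ beyond their spread in HEL P-bodies. PVT1 came next in the other 3 groups, at 18.7 ± 1.58 CPM per kb in MOLM-13 P-bodies, 8.07 ± 0.134 in HEL P-bodies and 7.27 ± 0.172 in HEL cytosol. Below it TUG1, SNHG14 and NEAT1 changed places between groups. TUG1 ranged from 4.98 ± 0.274 CPM per kb in HEL P-bodies to 8.49 ± 0.0838 in MOLM-13 cytosol, SNHG14 from 1.15 ± 0.0843 in HEL cytosol to 10.7 ± 0.386 in MOLM-13 P-bodies, and NEAT1 from 0.728 ± 0.118 in HEL P-bodies to 9.82 ± 0.623 in MOLM-13 cytosol. In HEL P-bodies the mean of SNHG14 (4.76 ± 0.0225 CPM per kb) differed from that of TUG1 by less than the SD of TUG1. KCNQ1OT1 followed with 0.067 to 0.123 CPM per kb, and MIAT was last with 0.0134 to 0.0329. The middle of this order depended on the length used: per kb of the longest transcript PVT1 reached 63.7 CPM per kb in MOLM-13 cytosol and stood second there, above OIP5-AS1. For NEAT1 both lengths were those of the long isoform, 22.77 kb of exon and 22.74 kb of transcript. Its short isoform was not told apart, so its place in the order holds for these lengths only.

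The lines were compared in a fit of all 8 libraries with 1 set of TMM factors, over 17477 genes, and the CPM of the line contrasts are from that scaling. Line and table cannot be told apart, nor can fewer cells with an RNA and less of it per cell in such bulk samples. In P-bodies 5 of 8 tested members were called higher in MOLM-13 and 1 lower, where 41% and 40.8% of all genes were. In cytosol 5 were called higher and 1 lower, where 44.2% and 40.1% of all genes were. MALAT1 and NEAT1 differed most among the members in both fractions. MALAT1 averaged 3128 ± 9.85 CPM in MOLM-13 P-bodies and 683.5 ± 42.0 CPM in HEL P-bodies, which was 4.58-fold higher in MOLM-13 (log2 change 2.20 ± 0.062; edgeR adjusted p = 2.75e-18). In cytosol it averaged 4741 ± 192 CPM in MOLM-13 and 651 ± 48.8 CPM in HEL, which was 7.28-fold higher (edgeR adjusted p = 6.67e-20).

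NEAT1 was higher in MOLM-13 by nearly the same factor in both fractions, 6.74-fold in P-bodies (edgeR adjusted p = 3.08e-16) and 6.75-fold in cytosol (edgeR adjusted p = 6.28e-17). SNHG14 averaged 447 ± 14.1 CPM in MOLM-13 P-bodies and 210.1 ± 0.606 CPM in HEL P-bodies, a 2.13-fold difference (edgeR adjusted p = 1.36e-12). Its cytosolic difference was wider, with 240.0 ± 2.61 CPM in MOLM-13 and 48.1 ± 3.72 CPM in HEL, 4.98-fold (edgeR adjusted p = 1.69e-17). PVT1 was 2.20-fold higher in MOLM-13 P-bodies (edgeR adjusted p = 1.54e-10) and 2.94-fold higher in MOLM-13 cytosol (edgeR adjusted p = 8.23e-13). NORAD went the other way and was lower in MOLM-13, 1.96-fold in P-bodies (edgeR adjusted p = 1.83e-10) and 1.65-fold in cytosol (edgeR adjusted p = 4.22e-08). KCNQ1OT1 was called higher in MOLM-13 in P-bodies, at a log2 change of 0.59 (edgeR adjusted p = 0.00609), and TUG1 in cytosol, at 0.52 (edgeR adjusted p = 1.22e-05). The KCNQ1OT1 call was lost in DESeq2 (adjusted p = 0.0861), without the count filter (edgeR adjusted p = 0.178) and without MOLM-13 P-body replicate 2 (edgeR adjusted p = 0.0735). The TUG1 call was lost without the count filter, at 0.23 (edgeR adjusted p = 0.0746). OIP5-AS1 was called in neither fraction, with log2 differences of 0.011 in P-bodies (95% interval -0.11 to 0.14) and -0.087 in cytosol (-0.22 to 0.042). In P-bodies it was called lower in MOLM-13 without the count filter (-0.21; edgeR adjusted p = 0.0119). Its P-body difference ran from -0.038 to 0.19 with 1 library left out, so its direction there was not settled. In cytosol it was called lower in MOLM-13 by DESeq2 (-0.22; adjusted p = 0.00428) and without the count filter (-0.38; edgeR adjusted p = 2.30e-06).

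The interaction, the P-body over cytosol log2 change of MOLM-13 minus that of HEL in the same fit, was called lower for 3 of 8 members and higher for none, where 13% of all genes were called lower and 9.15% higher. SNHG14 gave -1.23 ± 0.097 (edgeR adjusted p = 2.33e-08), MALAT1 -0.67 ± 0.084 (edgeR adjusted p = 5.23e-06) and PVT1 -0.42 ± 0.13 (edgeR adjusted p = 0.0198). In this fit the median interaction of all genes was -0.11, against which each value is to be read. With TMM factors taken within each line, an alternative chosen after the data had been seen, the median was 0.077. SNHG14 was then at -1.04 and MALAT1 at -0.48, both still called, whereas PVT1 was no longer called (-0.23; edgeR adjusted p = 0.210) and OIP5-AS1 was called higher (0.29; edgeR adjusted p = 0.0185). The other members were not called in the 8-library scaling: NEAT1 had an interaction of -0.0020, with a 95% interval of -0.36 to 0.35, NORAD one of -0.24, TUG1 one of -0.34 and OIP5-AS1 one of 0.10.

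**Figure D3:**
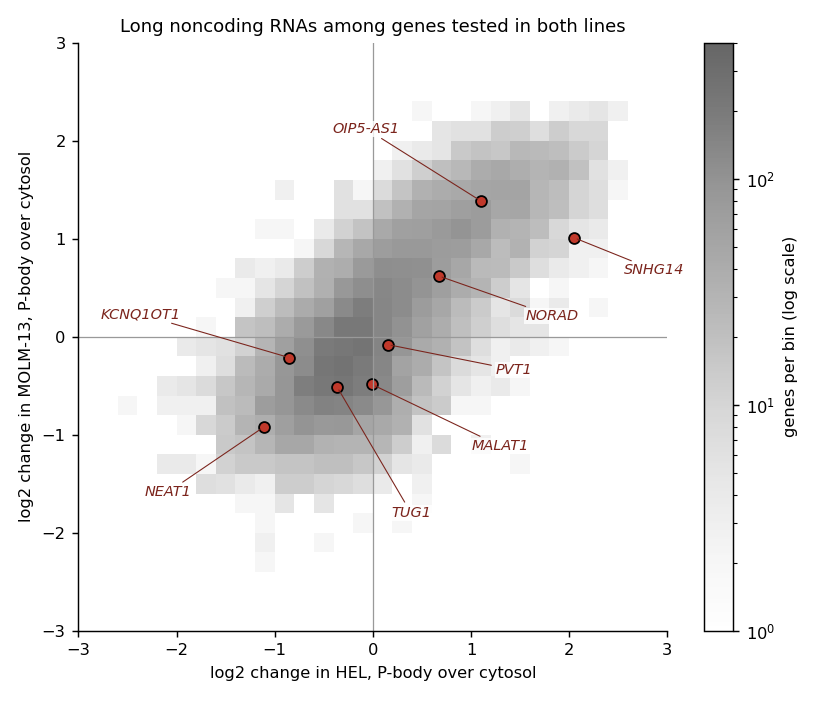
Log2 change, P-body over cytosol, in HEL (horizontal axis) and in MOLM-13 (vertical axis) for the 11984 genes tested in both lines (grey, genes per bin on a log scale) with the 8 tested long noncoding RNAs as red points. SNHG14 lies at the right edge of the cloud, higher in HEL than in MOLM-13, and NEAT1 and TUG1 lie in the lower left quadrant.

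The members differ in base composition, which the choice of members did not use. GC content of the reference transcripts was 38.4% in OIP5-AS1, 40.3% in MALAT1, 41.6% in NORAD, 43.1% in TUG1, 43.7% in KCNQ1OT1, 44.1% in NEAT1, 44.9% in SNHG14, 51.8% in MIAT and 52.2% in PVT1. Across all matched genes, low GC content went with a higher P-body level, and a smooth trend on GC content and length accounted for 40.49% of the deviance of log2 change in MOLM-13 and 36.07% in HEL. The trend alone gave MALAT1 0.74 in MOLM-13 and 0.66 in HEL, NORAD 0.67 in MOLM-13 and 0.53 in HEL, and OIP5-AS1 0.84 in MOLM-13 and 0.82 in HEL on the log2 scale. For PVT1, the most GC-rich tested member, it gave -0.12 in MOLM-13 and -0.25 in HEL. MALAT1 thus lay below the value for its composition in both lines, with remainders of -1.23 in MOLM-13 (adjusted p = 2.23e-17) and -0.66 in HEL (adjusted p = 5.91e-06). SNHG14 lay above it, with remainders of 0.68 in MOLM-13 and 1.81 in HEL.

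**Figure D4:**
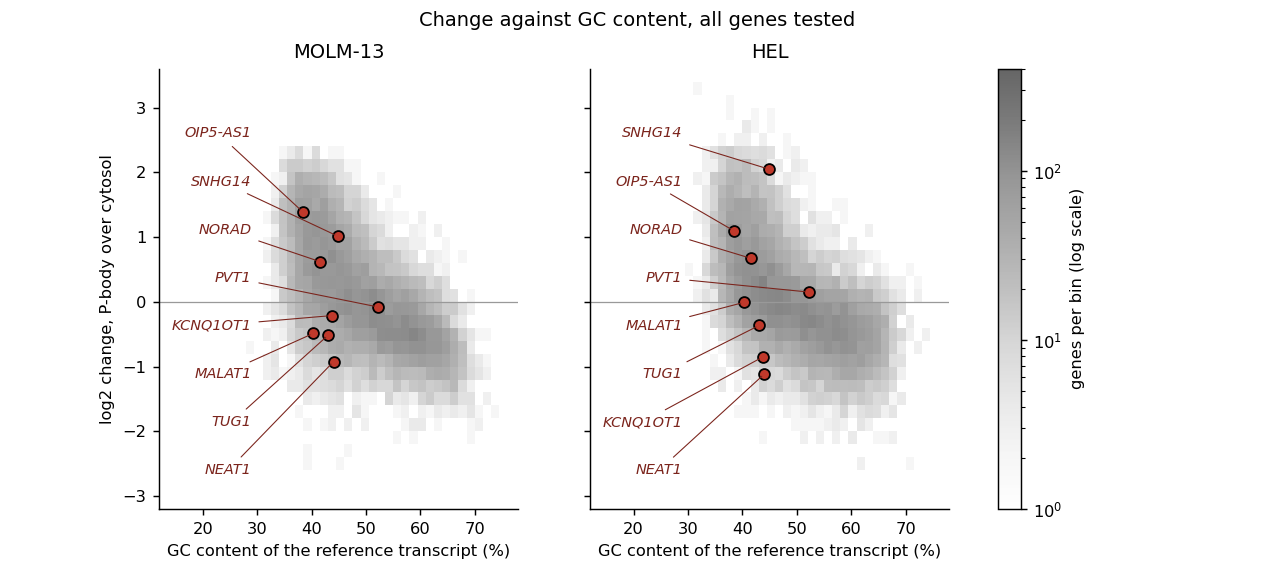
Log2 change, P-body over cytosol (vertical axis), against GC content in percent (horizontal axis) of the reference transcript, in MOLM-13 (left) and HEL (right); grey shows all tested genes matched to the reference, per bin on a log scale, and red points the 8 tested long noncoding RNAs. Of the members with 38.4% to 44.9% GC, OIP5-AS1, SNHG14 and NORAD lie above 0 in both lines and NEAT1, KCNQ1OT1 and TUG1 below. MALAT1, also in this range, lies below 0 in MOLM-13 (-0.49) and close to 0 in HEL (-0.0075).

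Other noncoding RNAs and proteins tied to the members were read from lists. Their calls are to be read beside the shares over all genes tested. These were 32.4% higher and 28.5% lower in MOLM-13, and 27.5% higher and 27.1% lower in HEL. Of 16 spliced host genes of small nucleolar RNAs, the class to which SNHG14 also belongs, MOLM-13 P-bodies had 1 called higher and 11 called lower (median log2 change -0.35), and HEL P-bodies had 8 called higher and 1 called lower (median 0.21). With library totals no host gene was called higher in either line, 15 were called lower in MOLM-13 and 4 in HEL, and the HEL median was -0.11, so the HEL direction flipped with the scaling. DESeq2 called 1 host gene higher and 8 lower in MOLM-13, and 6 higher and 0 lower in HEL. SNHG3 was lower in both lines, with log2 changes of -0.91 ± 0.076 in MOLM-13 (edgeR adjusted p = 1.23e-10) and -0.31 ± 0.097 in HEL (edgeR adjusted p = 0.0134). SNHG16 was higher in P-bodies of both lines, with log2 changes of 0.58 ± 0.089 in MOLM-13 (edgeR adjusted p = 3.97e-06) and 0.44 ± 0.086 in HEL (edgeR adjusted p = 0.0005). GAS5, a host gene of many snoRNAs that is linked to growth arrest, was called lower in MOLM-13 (-0.20 ± 0.045; edgeR adjusted p = 0.000481) and higher in HEL (0.43 ± 0.077; edgeR adjusted p = 0.000231).

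Of 34 other well studied long noncoding RNAs, 24 were tested in MOLM-13, with 8 called higher and 10 lower, and 25 in HEL, with 5 called higher and 8 lower. Their median log2 change was -0.088 in MOLM-13 and -0.14 in HEL, and with library totals 1 was called higher and 15 lower in MOLM-13 and 4 higher and 14 lower in HEL. DESeq2 called 5 higher and 4 lower in each line. OTUD6B-AS1 had the lowest p among the higher ones in both lines, at 1116 and 1130 CPM in MOLM-13 P-bodies, against 318 and 330.1 CPM in MOLM-13 cytosol. HEL P-bodies held 693 and 659 CPM of OTUD6B-AS1, against 201 and 174 CPM in HEL cytosol, and the fold was 3.46 in MOLM-13 and 3.6 in HEL. EBLN3P was also higher in both lines (0.37 ± 0.093 in MOLM-13 and 0.74 ± 0.12 in HEL on the log2 scale), and GABPB1-AS1 was lower in both (-0.65 ± 0.085 in MOLM-13 and -0.68 ± 0.11 in HEL). FTX, an RNA of the X-inactivation centre, was called lower in MOLM-13 (-0.67 ± 0.11), and CRNDE in HEL (-0.58 ± 0.10). Among all long noncoding RNA genes of the reference, 11.3% of 1361 tested in MOLM-13 were called higher and 23.4% lower. In HEL 11.9% of 1466 were called higher and 16.2% lower. Over all genes tested the shares were 32.4% and 28.5% in MOLM-13 and 27.5% and 27.1% in HEL. DESeq2 called 67 higher and 76 lower of 1270 in MOLM-13, and 102 higher and 71 lower of 1539 in HEL. More were called lower than higher in both lines with RLE factors, library totals and the trend removed, so the HEL balance depended on the method.

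The mRNAs of 16 reported protein partners of the members split likewise, with 9 called higher and 6 lower in MOLM-13 and 7 higher and 9 lower in HEL. Over all genes tested, 32.4% were called higher and 28.5% lower in MOLM-13, and 27.5% and 27.1% in HEL. The median log2 change in MOLM-13 was 0.28 with TMM, -0.16 with library totals and -0.13 with the GC and length trend removed, and in HEL it was -0.27 with TMM. PUM2, a Pumilio protein gene chosen after its values were seen, was 2.05-fold higher in MOLM-13 (edgeR adjusted p = 7.63e-14) and 2.10-fold higher in HEL (edgeR adjusted p = 1.29e-08). TOP1, a topoisomerase reported to join NORAD in a nuclear complex, was 2.51-fold higher in MOLM-13 (edgeR adjusted p = 3.78e-19) and 2.79-fold higher in HEL (edgeR adjusted p = 2.66e-10). EZH2, a histone methyltransferase of the Polycomb group, was 2.20-fold higher in MOLM-13 (edgeR adjusted p = 8.69e-15) and 2.43-fold higher in HEL (edgeR adjusted p = 2.45e-09). SF1, which binds MIAT, was lower in both lines (log2 change -0.60 ± 0.054 in MOLM-13 and -0.80 ± 0.080 in HEL), as were EHMT2, a histone methyltransferase reported to bind the mouse KCNQ1OT1 homologue (-0.79 ± 0.075 in MOLM-13 and -0.59 ± 0.11 in HEL), and MYC, the neighbour of PVT1 (-0.29 ± 0.065 in MOLM-13 and -0.79 ± 0.082 in HEL).

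Of 20 paraspeckle proteins, whose RNA scaffold is NEAT1, MOLM-13 P-bodies had 12 mRNAs called higher and 8 called lower, and HEL P-bodies had 5 called higher and 11 called lower. Over all genes tested, 32.4% were called higher and 28.5% lower in MOLM-13, and 27.5% and 27.1% in HEL. DESeq2 called 11 paraspeckle mRNAs higher and 4 lower in MOLM-13, and 5 higher and 8 lower in HEL. FAM98A was 4.31-fold higher in MOLM-13 P-bodies (edgeR adjusted p = 2.02e-19) and 2.10-fold higher in HEL P-bodies (edgeR adjusted p = 7.05e-09). NUDT21, a cleavage factor subunit for polyadenylation, was 2.27-fold higher in MOLM-13 P-bodies and 2.12-fold higher in HEL P-bodies. HNRNPUL1 was 2.06-fold lower in MOLM-13 P-bodies and 1.67-fold lower in HEL P-bodies. The list's median in MOLM-13 was 0.24 with TMM, -0.20 with library totals and -0.078 with the GC and length trend removed, so its direction there depended on the setting. It was -0.24 in HEL with TMM.

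**Figure D5:**
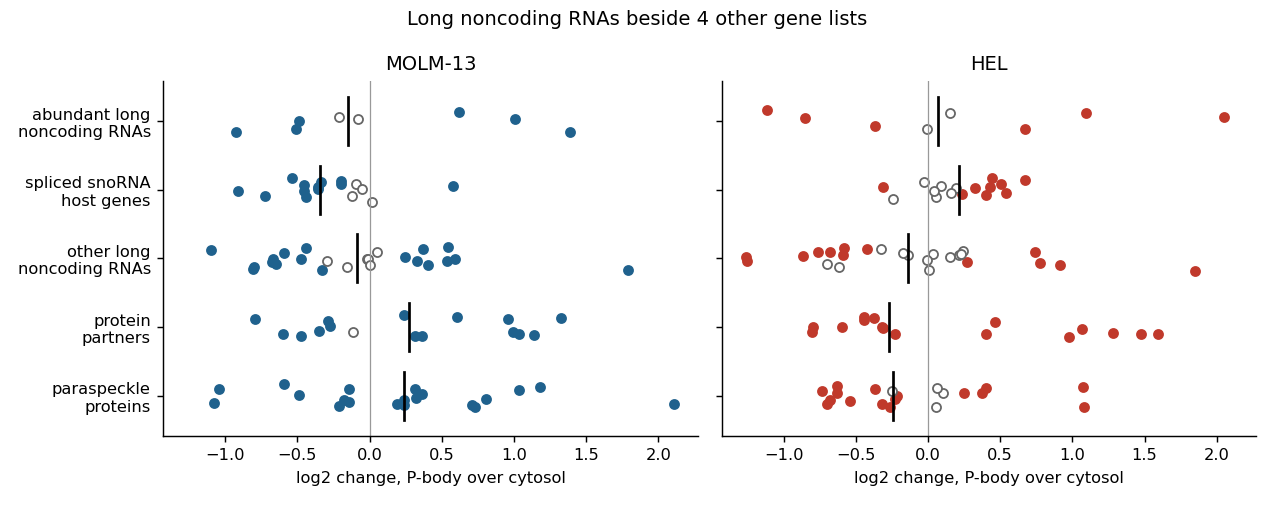
Log2 change, P-body over cytosol (horizontal axis), of the tested long noncoding RNAs and of 4 other lists, in MOLM-13 (left) and HEL (right); each point is a gene, filled where the edgeR adjusted p was below 0.05, black bars are list medians and vertical jitter carries no value. The spliced snoRNA host genes have medians of -0.35 in MOLM-13 and 0.21 in HEL, and the other lists span 0 in both lines.

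Small nuclear RNAs as a sign of nuclear material could not be read. Of 10 listed structured nuclear RNAs 9 were in the tables, none passed the filter, and their counts summed to 10 to 17 per MOLM-13 library and 3 to 5 per HEL library. The part of nuclear RNA in the levels of MALAT1, NEAT1 and KCNQ1OT1 was not tested. Genes whose level profile over the 8 libraries was nearest to a member, by Euclidean distance of centred log2 CPM among 11984 genes, were DNAJA1 for OIP5-AS1 (distance 0.117), ZSWIM7 for PVT1 (0.167), XRCC2 for NORAD (0.170), GFUS for TUG1 (0.172) and HEBP2 for MALAT1 (0.188). LRRC23 was nearest to KCNQ1OT1 (0.256), DPYD to SNHG14 (0.318) and RNF44 to NEAT1 (0.385). The DNAJA1 log2 changes of 1.33 in MOLM-13 and 1.11 in HEL stood beside 1.39 in MOLM-13 and 1.10 in HEL for OIP5-AS1. DNAJA1 was picked by closeness over the same libraries, so this likeness follows from the choice.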

How the data were processed

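Whole-number read counts per gene symbol were used as the authors deposited them, in a table for each line. Per the submitters' processing notes, STAR, SAMtools 1.12, DESeq2 and GRCh38 were used. The labels' protocols name the miRNeasy Micro Kit for extraction and the NEBNext Ultra II RNA kit for the libraries. No source used here gives the read counter, annotation release or strand setting.

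Of 61544 rows per table, 1348 rows with 112 repeated symbols were left out (0.0193% to 0.0477% of counts). Fractions were compared with edgeR 4.0.16 in R 4.3.3 (TMM, filterByExpr with a smallest count of 10, quasi-likelihood test, Benjamini-Hochberg adjustment over all genes tested), separately in each line. The interaction and the line contrasts came from a fit of all 8 libraries. Log2 change was also regressed smoothly on transcript GC content and length (mgcv 1.9.3) over genes matched to GENCODE release 29 (57104 of 60308 symbols matched), and that trend entered edgeR as an offset in an alternative fit. The calculations were run on simulated counts with known changes in few genes and the same spread for all genes. These data had many called genes, so that run does not give their error rate. Replicates of a group differed by more than sampling noise (chi-square per degree of freedom 1.87 to 6.15) and were counted as separate samples. One count was worth 0.0577 to 0.148 CPM. No spike-in was used here, so a change is relative to other genes of the library.

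The members and gene lists were chosen with earlier results of these data known. Named genes were all members, genes that overlap a member, at most 2 genes per list, line and direction by lowest p, and the nearest profiles; 1 listed gene is not reported here. Alternatives were DESeq2 1.42.0, RLE factors, library totals, no count filter, a replicate block, 1 joint fit, the removed trend and each library left out.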

Additional observations from a re-analysis of the deposited data

Results flagged for a closer look

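The P-body over cytosol log2 change was called lower in MOLM-13 than in HEL for 3 of 8 tested members. The test was the interaction in the fit of all 8 libraries (MOLM-13 minus HEL). There 13% of the 17477 genes tested were called lower and 9.15% higher, and the median interaction was -0.11. SNHG14 gave -1.23 (edgeR adjusted p = 2.33e-08), with all 4 P-body libraries above the cytosolic libraries of their line. MALAT1 gave -0.67 (edgeR adjusted p = 5.23e-06), with both MOLM-13 P-body libraries below both MOLM-13 cytosolic libraries and overlapping groups in HEL. Both calls were kept under all 14 alternatives run, with SNHG14 between -1.26 and -0.86 and MALAT1 between -0.71 and -0.30. PVT1 gave -0.42 (edgeR adjusted p = 0.0198), and this call was lost under 10 of the 14 alternatives, where its adjusted p reached 0.713. PVT1 was called in neither line on its own.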

How the results depend on the processing

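The calls within each line for NEAT1, OIP5-AS1 and SNHG14, and for MALAT1 and TUG1 in MOLM-13, kept their direction and stayed past the threshold under all 11 alternatives. MALAT1 in HEL turned sign, uncalled, with RLE factors (0.042), in DESeq2 (0.038) and in the joint fit (0.070), and ran from -0.088 to 0.069 with 1 library left out. With library totals 6761 genes were called lower in HEL (4006 with TMM), and in MOLM-13 7154 lower (4015) and 2903 higher (4558), with 5 members lower there, since the median log2 change of all genes moved to -0.39 in HEL and -0.48 in MOLM-13. Of the called genes 28.9% in MOLM-13 and 29% in HEL were then higher, beside 53.2% and 50.3% with TMM. PVT1 in HEL turned to -0.18 with library totals, and PVT1 in MOLM-13 to 0.036 with the trend removed, where NORAD turned to -0.052. PVT1 in MOLM-13 ran from -0.15 to 0.023 with 1 library left out. DESeq2 called 2606 genes lower in HEL, 2084 in MOLM-13 and 1250 in the interaction.

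In the interaction, NEAT1 turned sign, uncalled, with RLE factors (0.073), library totals (0.076), no filter (0.068), DESeq2 (0.10) and TMM within each line (0.19). That last setting called 2634 genes higher, 1400 lower and 1 member higher. With 1 library left out the interaction called 0 to 1 members higher, 1198 to 3441 genes higher and 880 to 2054 lower, and ran from -0.059 to 0.35 for NEAT1, -0.30 to 0.16 for NORAD and -0.40 to 0.033 for TUG1. Without HEL P-body replicate 1, HEL cytosol replicate 1 or HEL cytosol replicate 2, the median of all genes was 0.19, 0.17 or 0.14, OIP5-AS1 was called higher (0.42, 0.32 and 0.46), and PVT1 was not called. Without MOLM-13 P-body replicate 2 or MOLM-13 cytosol replicate 2 PVT1 was not called either.

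Between lines, no filter gave 2 members called lower in P-bodies, NORAD at -1.19 and OIP5-AS1 at -0.21. TUG1 in P-bodies turned to -0.040 there and KCNQ1OT1 in cytosol to -0.15, both uncalled. In DESeq2 OIP5-AS1 in P-bodies was -0.017, uncalled. In cytosol 2 members were called lower with RLE factors, library totals, no filter and DESeq2, OIP5-AS1 being the second, and 1 to 2 with 1 library left out. With 1 library left out OIP5-AS1 ran from -0.038 to 0.19 in P-bodies and KCNQ1OT1 from -0.017 to 0.13 in cytosol. The causes of these shifts were not tested.

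With the replicate number as a block, 3 members were called higher and 3 lower in each line and the interaction of SNHG14 was -1.23; no call on a member changed. The numbers are only shared: same-numbered libraries did not deviate together (correlation of deviations -0.0028 in MOLM-13 and -0.031 in HEL, 2 pairs each). Low counts limit KCNQ1OT1 and MIAT, and leaving out a library leaves a group with 1, whose spread is taken from the other groups.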
